A study of Homo sapiens with 12 samples.

Results

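The genes described here encode the voltage-gated sodium and calcium channels, the HCN channels, the sodium leak channel and the TRP cation channels. Members were chosen by gene symbol: the SCN symbols of sodium channel alpha and beta subunits, all symbols starting with CACNA1 or CACNA2, CACNB1 to CACNB4, CACNG1 to CACNG8, the HCN symbols, NALCN, and TRPA, TRPC, TRPM or TRPV followed by 1 digit, with antisense genes left out. Of the 55765 symbols counted, 70 met this rule. They comprised 67 channel genes (TRPC2 is a pseudogene in human) and 3 non-coding transcripts from introns of CACNA1C, which had 24 to 81 reads over all libraries and are not counted below.

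RNA was measured in SH-SY5Y cells, a neuroblastoma line that is a subline of SK-N-SH and is differentiated towards a neuron-like state with all-trans retinoic acid (ATRA). All 12 libraries came from cells differentiated with ATRA for 7 days. In the co-treatment experiment, 3 libraries came from cells given hydrogen peroxide (H2O2) together with ATRA and 3 from cells given ATRA alone. In the pre-treatment experiment, 3 libraries came from cells given H2O2 72 h before ATRA and 3 from cells without H2O2. The series text gives the H2O2 dose as 10 mM. The study's methods give it as 10 μM, the lowest of the concentrations tried, so the sources differ in the unit. The replicates are labelled samples of 1 cell line, and nothing in the labels says that they were separate cultures, so p-values measure the spread between these samples, which may be technical.

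Voltage-gated sodium channels pair a large pore-forming alpha subunit with beta subunits and carry the rising phase of the action potential. Voltage-gated calcium channels combine a CACNA1 pore with a CACNA2D subunit and a CACNB subunit, which set how much channel reaches the membrane, and they couple depolarisation to transmitter release and gene expression. HCN channels carry a current that opens on hyperpolarisation, NALCN carries a resting sodium leak, and TRP channels are cation channels gated by stretch, temperature, lipids or chemicals, some of them responsive to oxidants.

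The libraries held 27576276 to 98287391 reads on genes. The pre-treatment controls were not alike. Controls 1 and 2 had 0.800 and 0.830 reads outside annotated genes for each read on a gene and 1.58% and 2.88% of gene reads on small RNAs, whereas control 3 had 0.200 and 17.6%, and the 3 H2O2-treated libraries had 0.343 to 0.462 and 13.3% to 15.1%. Control 3 is absent from the study's clustering of this experiment, and the pre-treatment comparison was therefore fitted over all 6 libraries and over the 5 without control 3. In edgeR's quasi-likelihood test no channel or partner gene called over the 5 libraries was called over the 6. The noradrenergic neuroblastoma marker HAND2 was present in every library, at 305 to 560 CPM (counts per 1000000 reads on genes after TMM scaling), while TH, the first enzyme of catecholamine synthesis, was at most 0.259 CPM. The leukocyte and muscle genes examined stayed at or below 0.696 CPM in every library, apart from ACTN2 and TNNT2 at up to 1.61 and 1.53 CPM, and of 6 genes of the mesenchymal neuroblastoma state PRRX1 was at most 0.0766 CPM. VIM, another of these 6, rose with H2O2 in both experiments in edgeR's quasi-likelihood test. It went from 5.70 to 9.78 CPM in controls to 15.2 to 17.7 CPM in co-treatment (adjusted p of 0.0272) and from 3.02 to 5.13 CPM to 19.6 to 23.4 CPM in pre-treatment (adjusted p of 0.0442 over 6 libraries), although leaving out any 1 library other than control 1 ended the co-treatment call (adjusted p of up to 0.205) and any other than control 3 the pre-treatment call (adjusted p of up to 0.408). FN1, FOSL1, COL1A1 and TAGLN passed in neither 6-library comparison. Without control 3 the same test called TAGLN higher, with a log2 fold change of 1.16 and an adjusted p of 0.00741. VIM was also called higher there (2.66, adjusted p of 0.000718), whereas FN1, FOSL1 and COL1A1 were not called. COL1A1 had log2 fold changes of -1.65 in co-treatment and of -0.60 and -1.05 in pre-treatment over 6 and 5 libraries. In the same order FN1 had 0.51, -0.33 and -0.53, and FOSL1 had 0.89, 0.51 and 0.32. The muscle gene TNNT2 was too low to be tested in co-treatment. In pre-treatment the same test gave it 3.11 ± 0.68 (SE) over 6 libraries, with an adjusted p of 0.320. Without control 3 it was called higher, with 4.06 ± 0.65 and an adjusted p of 0.00460. ACTN2 was called in none of these comparisons. The part of cell state in the channel results was not tested.

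A minority of the channel genes were well counted. Of the 67 channel genes, 26 reached at least 1 CPM in every library, 9 did so in some, and 32 stayed below 1 CPM in all. No channel gene was at 0 in all 12 libraries. However, 18 genes passed the filter on low counts in none of the comparisons, among them CACNA1A (24 reads), CACNA1H (4 reads), SCN4A (6 reads), SCN10A (3 reads), CACNG3 (3 reads) and TRPC4 (3 reads). At this depth these genes were close to undetected.

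Levels of different genes are compared as CPM per kilobase of exon, averaged over the 12 libraries. By this measure the most abundant member was CACNG4, at 71.0 ± 38.5 (SD, n = 12), an auxiliary subunit of the stargazin family that also escorts AMPA-type glutamate receptors. It was followed by CACNA2D2, a calcium channel alpha2delta subunit, at 40.6 ± 18.9. The highest mean of a pore-forming gene was 10.7, for TRPM7.

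**Figure D1:**
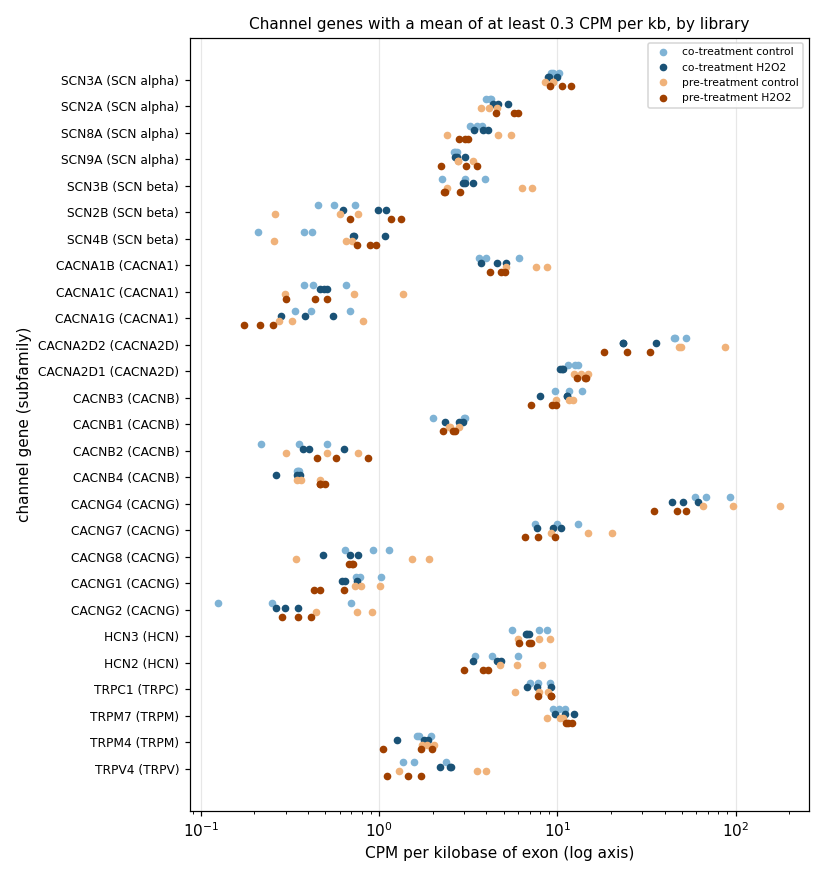
CPM per kilobase of exon on a log axis for reported channel genes with a mean of at least 0.3, grouped by subfamily; each point is 1 library and colours mark the 4 groups. CACNG4 and CACNA2D2 have the highest means, 71.0 and 40.6, and for SCN3B, CACNG8 and TRPV4 the pre-treatment controls are split, with 1 library well below the other 2.

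Among the pore-forming sodium channels, SCN3A, the Nav1.3 pore typical of immature neurons, was the most abundant per kilobase and took 36.6% to 46.1% of the summed alpha subunit level in each library. SCN2A took 16.2% to 23.4%, SCN8A 11.4% to 21.2% and SCN9A 11.03% to 13.3%. Of the calcium channel pores, CACNA1B, the N-type pore of presynaptic terminals, held 79.0% to 89.1% of the summed CACNA1 level. CACNA1C, the L-type pore, and CACNA1G, a T-type pore, followed with 5.10% to 12.2% and 3.61% to 9.81%, and CACNA1A, the P/Q-type pore, held at most 0.0364%.

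The remaining subfamilies were likewise led by 1 gene each. CACNA2D2 held 58.5% to 86.3% of its subfamily, CACNB3 64.3% to 79.1%, CACNG4 79.1% to 88.0%, HCN3 52.4% to 66.8%, TRPC1 99.3% to 99.9%, TRPM7 80.1% to 89.3% and TRPV4 79.3% to 93.6%. TRPM7 is a channel fused to a kinase that conducts magnesium and calcium, TRPC1 is linked to receptor-operated calcium entry, and TRPV4 responds to osmotic swelling and stretch. TRPA1, an irritant and oxidant sensor, had 49 reads over all libraries.

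NALCN itself was barely counted, with 73 reads in all and at most 0.393 CPM, although 3 of 4 listed partners of its complex were abundant. UNC79 ranged from 108 to 183 CPM, UNC80 from 70.6 to 169 CPM and FAM155A from 68.7 to 111 CPM over the same 12 libraries, whereas FAM155B ranged from 2.60 to 5.14 CPM. Per kilobase of exon the means over the 12 libraries were 0.00454 for NALCN and 11.1 for UNC79 and 5.83 for UNC80.

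**Figure D2:**
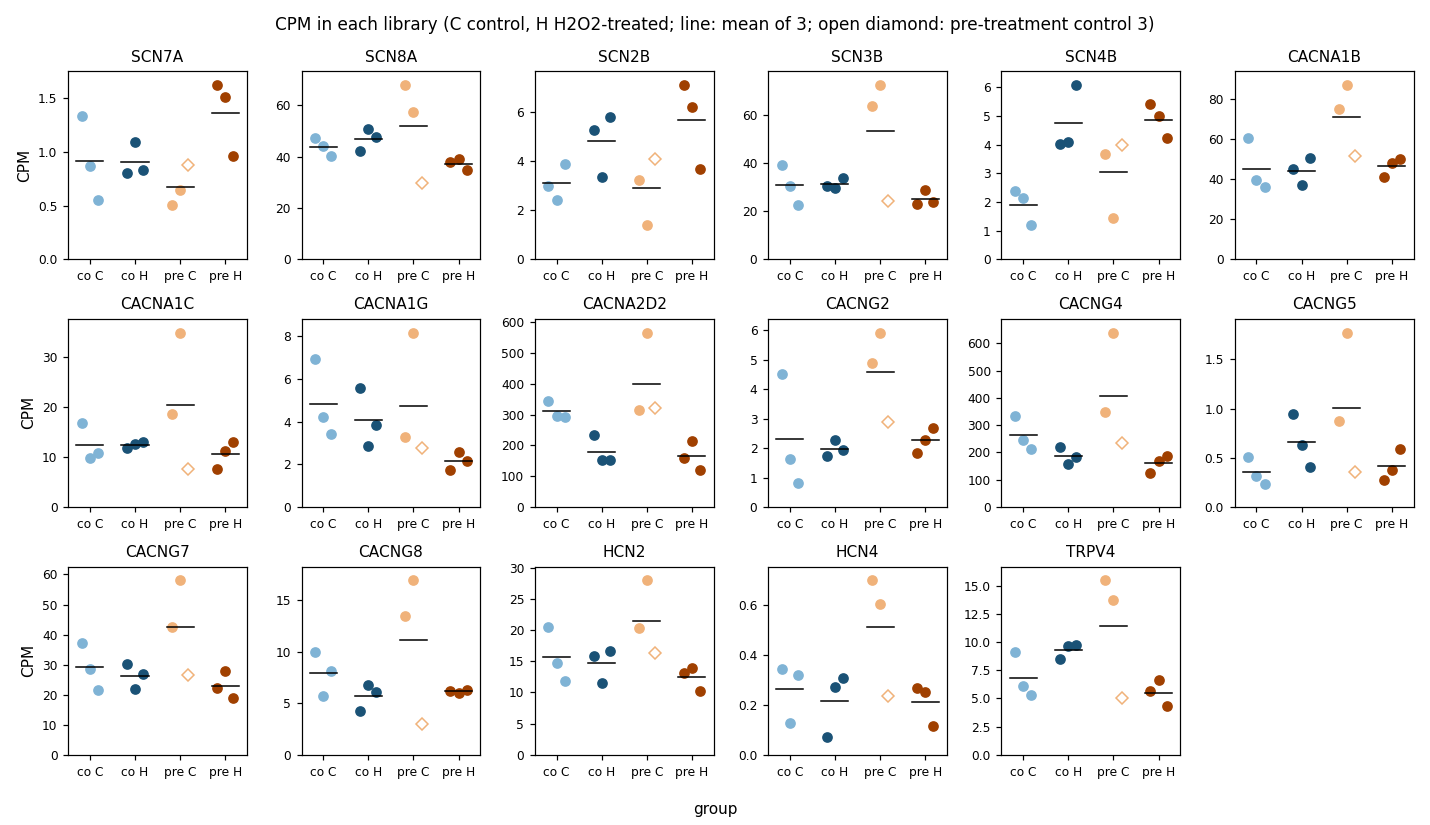
CPM in each library for 16 channel genes with an adjusted p below 0.05 in the pre-treatment comparison without control 3, and for SCN4B; columns are the control (C) and H2O2-treated (H) groups of each experiment, lines are means of 3, and the open diamond is pre-treatment control 3. For SCN3B, TRPV4, HCN4, CACNG5 and CACNG7 the diamond lies within the range of the H2O2-treated libraries. For CACNA2D2 it lies near the lower of the other pre-treatment controls, which are far apart.

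The co-treatment comparison asked whether H2O2 during differentiation changed the channel genes. None of the 42 channel genes tested passed an adjusted p of 0.05 with an absolute log2 fold change above 0.6 in edgeR's quasi-likelihood test, against 0.598% of all 22089 genes tested. At an unadjusted p below 0.05 there were 4 (CACNA2D2 and CACNG4 lower, SCN2B and SCN4B higher), beside 8.15% of all genes. edgeR's exact test and DESeq2 each called 2, CACNA2D2 and SCN4B, and each called 1.39% of all genes.

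CACNA2D2 was 344, 297 and 294 CPM in the co-treatment controls and 234, 152 and 152 CPM with H2O2. All 3 treated libraries were below all 3 controls, with a log2 fold change of -0.80 ± 0.17 (SE) and an adjusted p of 0.0697 in edgeR's quasi-likelihood test. SCN4B, a beta subunit that shapes resurgent sodium current, was 2.37, 2.13 and 1.19 CPM in controls and 4.04, 4.10 and 6.10 CPM with H2O2. Here every treated library was above every control, with a log2 fold change of 1.31 ± 0.29 (SE) and an adjusted p of 0.0767. The level of SCN4B was low, so it rests on few reads relative to CACNA2D2.

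The other co-treatment values were smaller. CACNG4 was 334, 245 and 212 CPM in controls and 221, 158 and 182 CPM with H2O2, with 1 treated library inside the control range, a log2 fold change of -0.50 ± 0.18 (SE) and an adjusted p of 0.423. SCN2B was 3.00, 2.43 and 3.90 CPM in controls and 5.27, 3.37 and 5.83 CPM with H2O2, with a log2 fold change of 0.63 ± 0.26 and an adjusted p of 0.539. Over the 42 tested genes the median log2 fold change was -0.04, against -0.00095 over all genes. The groups did not overlap for 4 genes that were higher with H2O2 (SCN4B, SCN2A, SCN11A and CACNA1D), where the share over all genes was 6.65%, and for 2 that were lower (CACNA2D2 and CACNA2D1), where it was 7.30%. The abundant pores differed little: SCN3A had a log2 fold change of -0.06 ± 0.12 (SE), CACNA1B of -0.03 ± 0.19 and TRPM7 of 0.11 ± 0.13.

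The pre-treatment comparison asked whether H2O2 before differentiation left a change in the differentiated cells. Over all 6 libraries none of the 44 channel genes tested was called at an adjusted p below 0.05 and an absolute log2 fold change above 1 in edgeR's quasi-likelihood test, against 0.0242% of all 24743 genes. At an unadjusted p below 0.05 there were 12, of which 10 were lower in treated cells, beside 11.2% of all genes in either direction. edgeR's exact test and DESeq2 each called 2, CACNA2D2 and CACNG4, both lower, beside 0.934% and 2.02% of all genes. The median log2 fold change was -0.25 over the channel genes and -0.0066 over all genes. The groups did not overlap for 8 genes that were lower (among them CACNA1B, CACNA1G, CACNA2D2, CACNG1, CACNG2, CACNG4 and HCN2), beside 8.02% of all genes, and for 5 that were higher (CACNB4, SCN4B, SCN7A, TRPM5 and TRPM7), beside 8.24%.

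Without control 3, 48 channel genes were tested and 13 were called, 11 lower and 2 higher, in edgeR's quasi-likelihood test with Benjamini-Hochberg adjustment. The shares called over all 26350 genes were 8.23% lower and 2.98% higher. The genes that fell were the calcium channel pores CACNA1C and CACNA1G, CACNA2D2, the stargazin-family genes CACNG2, CACNG4, CACNG5, CACNG7 and CACNG8, the pacemaker channel HCN4, the sodium channel beta subunit SCN3B, and TRPV4. SCN2B and SCN7A rose. A further 4, among them CACNA1B, HCN2 and SCN8A, passed the adjusted p but not the fold limit, all with a lower level. At the adjusted p alone 17 of the 48 channel genes passed, 15 lower and 2 higher, beside 26.1% of all genes. Scaling by library size alone moved the median of all genes from 0.0114 to -0.208 on the log2 scale and gave 14 calls, 0 higher and 14 lower, so the calls for SCN2B and SCN7A depended on the scaling. Leaving out control 2 as well left 1 control, which is assumed to vary like the treated group. All of the 13 but CACNG4, CACNG8, SCN3B and TRPV4 then lost their calls, and calls over all genes also became fewer. Leaving out treated replicate 1 instead gave 8 calls, and leaving out treated replicate 2 gave 9. Of all genes, 6.87% were called without treated replicate 1 and 8.57% without treated replicate 2. Among the 13 calls, the counts per subfamily were 5 of 6 tested CACNG genes, 2 of 5 CACNA1, 1 of 3 CACNA2D and 0 of 4 CACNB. They were 1 of 3 HCN, 1 of 8 sodium channel alpha and 2 of 4 beta. In the TRP subfamilies they were 0 of 3 TRPC, 0 of 7 TRPM, 0 of 1 TRPA and 1 of 4 TRPV.

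**Figure D3:**
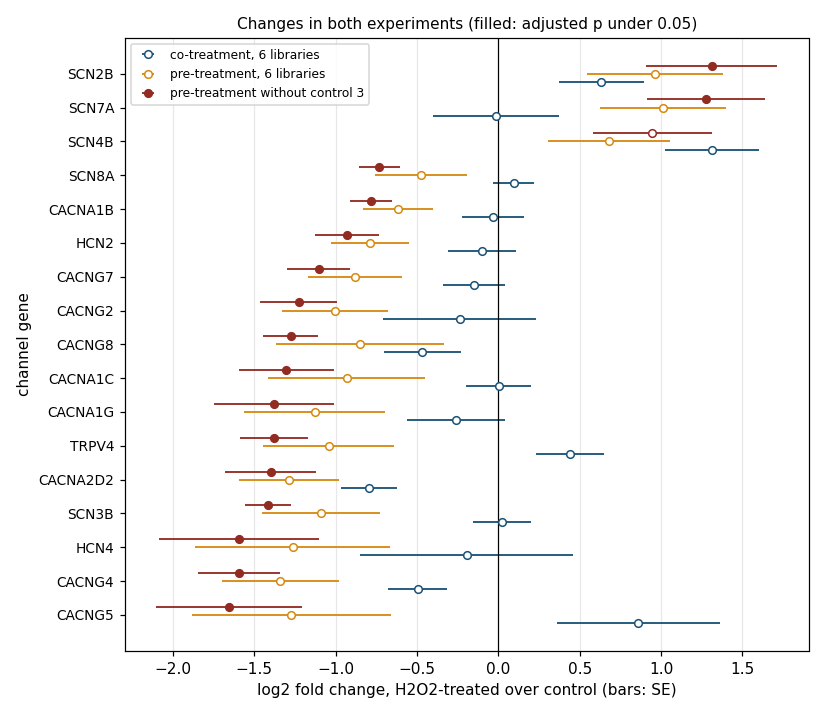
Log2 fold change of H2O2-treated over control libraries with its SE for 16 channel genes with an adjusted p below 0.05 in the pre-treatment comparison without control 3, and SCN4B, in the co-treatment comparison and in the pre-treatment comparison with and without control 3; filled points have an adjusted p below 0.05. Filled points occur in the 5-library comparison alone. With control 3 included each pre-treatment estimate lies nearer to 0, which picking the genes by the 5-library fit makes more likely.

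Beta subunits of the sodium channel moved in opposite directions in the 5-library comparison, SCN3B falling and SCN2B rising. SCN3B was 63.4, 72.4 and 24.1 CPM in pre-treatment controls 1, 2 and 3 and 23.1, 28.5 and 23.6 CPM after H2O2. Control 3 was within the treated range, and the log2 fold change was -1.42 ± 0.14 (SE) without control 3, with an adjusted p of 0.000996 in edgeR's quasi-likelihood test, and -1.09 ± 0.36 with it, with an adjusted p of 0.338. In co-treatment SCN3B differed by 0.02 ± 0.18 on the log2 scale.

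SCN2B was 3.22, 1.40 and 4.09 CPM in the pre-treatment controls and 7.13, 6.21 and 3.69 CPM after H2O2. Control 3 lay above treated replicate 3, and the log2 fold change was 1.31 ± 0.40 (SE; adjusted p of 0.0442) without control 3 and 0.96 ± 0.42 (adjusted p of 0.445) with it. The call was lost when control 2, treated 1 or treated 2 was also left out (adjusted p of up to 0.229). SCN4B was 3.67, 1.45 and 3.99 CPM in controls and 5.41, 4.99 and 4.23 CPM after H2O2. It was above the controls in every treated library, as in co-treatment, but did not pass the threshold with or without control 3 (adjusted p of 0.535 and 0.0879), although it was called when control 1 was also left out and, without control 3, in the fit with the replicate number as a block. SCN4B and SCN2B neighbour each other on the minus strand of chromosome 11 of hg19 (chr11:118004092-118023603 and chr11:118033521-118047354).

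The share of SCN3B in the summed level of SCN2B, SCN3B and SCN4B depends on all 3 genes. SCN3B took 80.0%, 78.5% and 70.5% of the summed level of these 3 genes per kilobase in the co-treatment controls and 64.1%, 68.5% and 60.8% with H2O2, so the groups did not overlap, although the level of SCN3B itself differed by 0.02 on the log2 scale and those of SCN4B and SCN2B by 1.31 and 0.63. In pre-treatment SCN3B took 83.5% and 93.3% in controls 1 and 2, 62.1% in control 3, and 50.1%, 58.2% and 62.1% after H2O2. Control 3 was level with the highest treated library. These shares were computed after the values of the genes had been seen and were not tested.

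**Figure D4:**
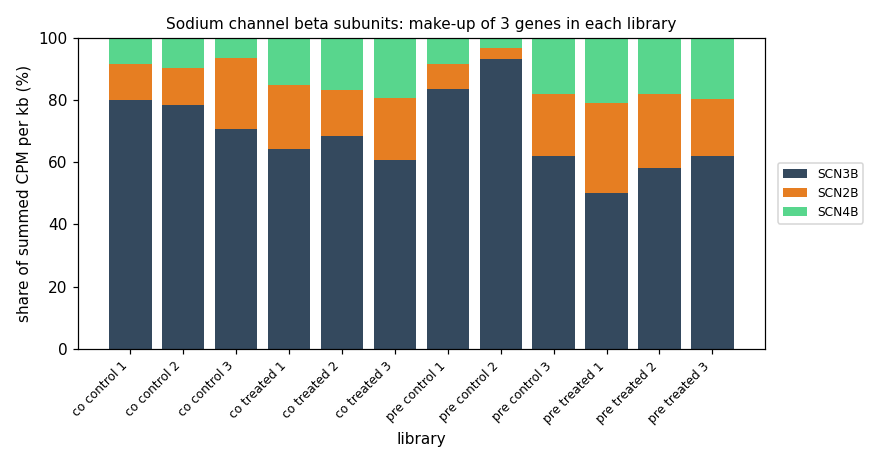
Share of each of SCN2B, SCN3B and SCN4B in the summed CPM per kilobase of these 3 sodium channel beta genes, in percent, for each of the 12 libraries. SCN3B makes up 93.3% in pre-treatment control 2 and 50.1% in pre-treatment H2O2 library 1, the extremes of the 12.

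Of the 8 sodium channel pores tested, 1 was called without control 3 (SCN7A), and SCN8A was among those that passed the adjusted p alone. SCN8A, which encodes the Nav1.6 pore of the axon initial segment, was 68.1, 57.5 and 29.9 CPM in the pre-treatment controls and 37.8, 39.1 and 34.9 CPM after H2O2. Its control 3 was below every treated library, and the log2 fold change was -0.73 ± 0.13 (SE) without control 3 and -0.48 ± 0.28 (adjusted p of 0.559) with it. SCN7A, which encodes a sodium-sensing rather than voltage-gated channel, was 0.501, 0.648 and 0.877 CPM in controls and 1.63, 1.52 and 0.957 CPM after H2O2, with a log2 fold change of 1.28 ± 0.36 without control 3 and 1.013 ± 0.39 (adjusted p of 0.383) with it. The 5-library call was lost on leaving out any further library but treated 3 (adjusted p of up to 0.147). SCN3A, the most abundant pore, was 109, 98.4 and 109 CPM in controls and 139, 122 and 105 CPM after H2O2, and did not pass in either fit. SCN2A and SCN3A overlap on opposite strands at the ends of their spans, but no exon bases of SCN2A are shared with an opposite-strand gene. Such sharing covers 13.1% of the exon bases of HCN3, 9.31% of CACNA2D2, 8.43% of SCN3A, 7.19% of SCN8A and 6.39% of CACNG4. Their counts may depend on the strand setting of the counting, which is not given in the sources used here.

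Genes for calcium channel pores were lower after pre-treatment where they passed a test. CACNA1B was 75.2, 87.1 and 51.3 CPM in controls and 41.3, 48.1 and 50.03 CPM after H2O2. All treated libraries were below all controls, control 3 by a narrow margin, with a log2 fold change of -0.78 ± 0.13 (SE; adjusted p of 0.00509) without control 3 and -0.62 ± 0.22 (adjusted p of 0.353) with it. CACNA1C was 18.5, 34.8 and 7.58 CPM in controls and 7.68, 11.2 and 12.995 CPM after H2O2. Control 3 was below every treated library, and the log2 fold change was -1.30 ± 0.29 without control 3 and -0.93 ± 0.48 (adjusted p of 0.512) with it. CACNA1G was 3.27, 8.16 and 2.76 CPM in controls and 1.75, 2.57 and 2.16 CPM after H2O2, a log2 fold change of -1.38 ± 0.37 without control 3 and -1.13 ± 0.43 (adjusted p of 0.387) with it. When control 2 was also left out, the adjusted p was 0.0531 for CACNA1B, 0.145 for CACNA1C and 0.298 for CACNA1G, and CACNA1G was not called without treated 1 or treated 2 either.

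Of the auxiliary subunits, CACNA2D2 was 315, 566 and 322 CPM in the pre-treatment controls and 160, 214 and 119 CPM after H2O2. It was the one gene among the 17 for which control 3 lay within the range of controls 1 and 2. That range was wide, and control 3 was close to its lower end. In edgeR's quasi-likelihood test the CACNA2D2 log2 fold change was -1.40 ± 0.28 (SE, adjusted p of 0.00986) without control 3. With control 3 it was -1.29 ± 0.31 (adjusted p of 0.320). The treated libraries were below the controls in both experiments, which share no library. With controls 2 and 3 both left out its adjusted p was 0.0905. CACNA2D1, the other alpha2delta gene with high counts, was 137, 125 and 113 CPM in controls and 131, 133 and 118 CPM after H2O2 and differed by 0.03 ± 0.16 on the log2 scale over 6 libraries and by -0.02 ± 0.11 over 5. CACNB3, the leading beta subunit, was 70.1, 83.3 and 88.0 CPM in controls and 66.9, 70.1 and 51.2 CPM after H2O2, with a log2 fold change of -0.36 ± 0.18 (adjusted p of 0.503) over 6 libraries and -0.27 ± 0.16 (adjusted p of 0.239) over 5.

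The 6 tested CACNG genes, which are CACNG1 and the stargazin-family genes CACNG2, CACNG4, CACNG5, CACNG7 and CACNG8, all had negative pre-treatment log2 fold changes. Their median was -0.94 over 6 libraries and -1.25 without control 3. CACNG4 was 347, 639 and 234 CPM in controls and 125, 168 and 188 CPM after H2O2. All treated libraries were below all controls, with a log2 fold change of -1.60 ± 0.25 (SE; adjusted p of 0.00440) without control 3 and -1.34 ± 0.36 (adjusted p of 0.320) with it. CACNG7 was 42.6, 58.02 and 26.5 CPM in controls and 22.2, 27.9 and 18.9 CPM after H2O2, with control 3 inside the treated range. CACNG8 was 13.5, 16.9 and 3.04 CPM in controls and 6.23, 6.005 and 6.29 CPM after H2O2. Here control 3 was less than any treated library, so the direction against that control was opposite.

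CACNG2, which encodes stargazin, was 4.90, 5.92 and 2.88 CPM in controls and 1.85, 2.27 and 2.69 CPM after H2O2, and 31.6% of its exon bases are shared with another gene annotated on the same strand, so its count is uncertain. CACNG5 was 0.876, 1.77 and 0.360 CPM in controls and 0.276, 0.372 and 0.587 CPM after H2O2, near the low-count filter. Without control 3 the log2 fold changes were -1.11 ± 0.19 (SE) for CACNG7, -1.28 ± 0.17 for CACNG8, -1.23 ± 0.24 for CACNG2 and -1.66 ± 0.45 for CACNG5. Over 6 libraries none of them passed, with -0.88 ± 0.29 (adjusted p of 0.334) for CACNG7, -0.85 ± 0.52 (0.566) for CACNG8, -1.005 ± 0.33 (0.329) for CACNG2 and -1.27 ± 0.61 (0.481) for CACNG5. With control 2 also left out, CACNG8 was still called, whereas CACNG2, CACNG5 and CACNG7 were not (adjusted p of 0.0772, 0.255 and 0.0636), and CACNG5 was not without treated 1 or treated 2. The genes lie in clusters on the plus strand: CACNG5 and CACNG4 at chr17:64831235-64890868 and chr17:64960823-65029514, and CACNG7 and CACNG8 at chr19:54412532-54447204 and chr19:54466191-54493469.

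HCN genes had negative pre-treatment log2 fold changes in all 3 tested members. HCN2, the second most abundant, was 20.3, 27.9 and 16.3 CPM in controls and 13.2, 14.0 and 10.3 CPM after H2O2. Every treated library was below every control, with a log2 fold change of -0.93 ± 0.20 (SE; adjusted p of 0.0119) without control 3 and -0.79 ± 0.24 (adjusted p of 0.320) with it, and the adjusted p was 0.116 without controls 2 and 3. HCN4 was 0.697, 0.605 and 0.235 CPM in controls and 0.266, 0.253 and 0.115 CPM after H2O2, with control 3 inside the treated range. The log2 fold change was -1.59 ± 0.49 (adjusted p of 0.0443) without control 3 and -1.27 ± 0.60 (adjusted p of 0.476) with it, and the call was lost when any further library was left out (adjusted p of up to 0.173). HCN3, the leading HCN gene, was 33.4, 38.5 and 25.6 CPM in controls and 29.3, 30.2 and 25.7 CPM after H2O2 and did not pass in either fit.

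In the TRP family 1 gene passed. TRPV4 was 15.5, 13.7 and 5.01 CPM in the pre-treatment controls and 5.64, 6.63 and 4.29 CPM after H2O2. Control 3 was within the treated range, and the log2 fold change was -1.38 ± 0.21 (SE; adjusted p of 0.00397) without control 3 and -1.04 ± 0.40 (adjusted p of 0.387) with it. In co-treatment TRPV4 was 9.15, 6.12 and 5.26 CPM in controls and 8.46, 9.65 and 9.76 CPM with H2O2, a log2 fold change of 0.44 ± 0.21 with an adjusted p of 0.643. TRPC1 (38.0, 27.9 and 42.8 CPM in controls; 44.3, 44.6 and 37.2 CPM after H2O2) and TRPM7 (128, 108 and 134 CPM; 150, 139 and 142 CPM) did not pass. TRPM2, a channel opened downstream of oxidants, was at most 0.483 CPM in any library.

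For the 17 genes with an adjusted p below 0.05 in the 5-library comparison, control 3 lay within the range of controls 1 and 2 for 1 gene, within the treated range for 6, beyond it for 3 and between the 2 ranges for 7. The fit that picked these genes left out control 3 and favoured genes with controls 1 and 2 apart from the treated libraries. That choice makes it more likely that control 3 lies away from controls 1 and 2. The tally was not made over all genes. The same libraries differ in reads outside genes and in small RNA reads, as given above, and the part of those differences in the channel results was not tested. Fewer reads for a gene could also mean fewer cells of a state or less RNA per cell, which cannot be told apart in bulk libraries.

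Whether the 2 protocols differed was tested as an interaction over all 12 libraries. None of the 46 channel genes tested had an adjusted p below 0.05 in edgeR's quasi-likelihood test, against 0.0287% of 24407 genes; 6 had an unadjusted p below 0.05 (among them CACNG5, SCN3B, TRPM5, TRPM6 and TRPV4), beside 8.94% of all genes, and DESeq2 called 0 channel genes and 0.442% of all genes. The log2 difference of pre-treatment minus co-treatment was -1.52 ± 0.50 (SE) for TRPV4 and -1.15 ± 0.45 for SCN3B. Of the 42 channel genes tested in both experiments, 26 had the same sign in co-treatment and pre-treatment over 6 libraries (61.9%), beside 54.4% of all genes tested in both.

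Genes that assist these channels were read from a list of 42 partners. In co-treatment 35 were tested and 2 were called, both lower, beside 0.598% of all genes. FGF14, an intracellular modulator of sodium channels, was 24.0, 26.2 and 26.9 CPM in controls and 14.0, 9.06 and 11.03 CPM with H2O2. The groups were apart, with a log2 fold change of -1.18 ± 0.17 (SE; adjusted p of 0.00749). GEM, a small GTPase that restrains calcium channels, was 43.4, 48.8 and 58.2 CPM in controls and 29.7, 25.7 and 22.8 CPM with H2O2, with a log2 fold change of -0.95 ± 0.15 (adjusted p of 0.0135). The FGF14 call was lost without treated 3 (adjusted p of 0.0940) and the GEM call without control 2, treated 2 or treated 3 (adjusted p of up to 0.160). In pre-treatment neither passed the test: FGF14 had a log2 fold change of 0.61 ± 0.38 and GEM of 0.25 ± 0.21 over 6 libraries, and of 0.44 ± 0.36 and 0.39 ± 0.19 over 5.

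In pre-treatment 36 partners were tested over 6 libraries and 0 were called by edgeR's quasi-likelihood test, with 5 at an unadjusted p below 0.05 (11.2% of all genes), while edgeR's exact test and DESeq2 each called RYR2, higher. Without control 3, 37 were tested and 4 were called, a share near the 11.2% of all genes called in that fit. ANK3, the ankyrin that anchors sodium channels at the axon initial segment, fell with a log2 fold change of -1.25 ± 0.23 (SE) and STAC2, a calcium channel adaptor, fell with -1.17 ± 0.28. With control 3 their values were -0.88 ± 0.46 (adjusted p of 0.516) and -0.91 ± 0.38 (adjusted p of 0.429). RYR2, a calcium release channel, rose: it was 1.09, 1.60 and 0.673 CPM in controls and 3.43, 3.49 and 3.64 CPM after H2O2, a log2 fold change of 1.42 ± 0.26 without control 3 and 1.66 ± 0.35 (adjusted p of 0.320) with it, and without control 3 was called also with each further library left out. In this case control 3 was the lowest of the controls. RRAD, a GTPase related to GEM, rose by 1.62 ± 0.50 in the 5-library fit from 0.216 to 0.286 CPM in controls, differed by 1.66 ± 0.48 (adjusted p of 0.320) over 6 libraries, and had a log2 fold change of 1.62 ± 0.49 in co-treatment with an adjusted p of 0.271. The calls for ANK3, STAC2 and RRAD were lost when control 2 was also left out (adjusted p of 0.0679, 0.165 and 0.206), that for STAC2 also without treated 1, and that for RRAD also without control 1, treated 1 or treated 2 and on scaling by library size alone (adjusted p of 0.0730).

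Promoter sequence is shown for 4 of the 13 genes called in the 5-library pre-treatment comparison, namely CACNA1C, CACNA2D2 and HCN4, which fell, and SCN2B, which rose. Each is the 250 bases before a transcript start from RefSeq (GRCh38.p14), written 5′ to 3′ on the strand of the gene, with the GC box (GGGCGG on either strand) in capitals. Each run matched the hg19 chromosome of its gene once, and other chromosomes were not searched. The windows are chr12:2161903-2162152 (plus strand) for CACNA1C, chr3:50541676-50541925 (minus) for CACNA2D2, chr15:73661300-73661549 (minus) for HCN4 and chr11:118047355-118047604 (minus) for SCN2B, and none overlaps an annotated exon. The CACNA1C start lies 82 kb inside the annotated span of the gene. CACNA2D2 has 2 listed starts, of which the first along the gene is shown.
CACNA1C: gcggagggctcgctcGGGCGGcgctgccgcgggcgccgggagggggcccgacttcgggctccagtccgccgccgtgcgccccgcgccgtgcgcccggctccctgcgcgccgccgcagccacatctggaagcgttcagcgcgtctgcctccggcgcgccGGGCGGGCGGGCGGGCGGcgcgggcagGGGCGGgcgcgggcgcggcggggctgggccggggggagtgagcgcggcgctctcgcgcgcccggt
CACNA2D2: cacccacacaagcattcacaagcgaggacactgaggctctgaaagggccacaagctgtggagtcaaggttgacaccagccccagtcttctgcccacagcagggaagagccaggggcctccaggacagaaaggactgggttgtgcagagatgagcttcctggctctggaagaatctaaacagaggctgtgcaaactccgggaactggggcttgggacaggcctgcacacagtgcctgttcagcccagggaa
HCN4: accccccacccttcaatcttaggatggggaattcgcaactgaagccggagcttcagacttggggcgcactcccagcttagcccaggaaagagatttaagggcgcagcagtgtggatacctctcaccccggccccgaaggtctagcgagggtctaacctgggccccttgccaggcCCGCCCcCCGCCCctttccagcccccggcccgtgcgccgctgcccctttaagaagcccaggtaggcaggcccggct
SCN2B: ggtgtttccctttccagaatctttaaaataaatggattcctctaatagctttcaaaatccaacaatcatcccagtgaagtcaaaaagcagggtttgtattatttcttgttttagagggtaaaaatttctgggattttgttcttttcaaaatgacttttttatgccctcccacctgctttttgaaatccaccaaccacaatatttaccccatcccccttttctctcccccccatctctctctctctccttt

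The CACNA1C window holds 6 GC boxes, of which some overlap, and the HCN4 window holds 2, whereas those of CACNA2D2 and SCN2B hold none. The window of the other CACNA2D2 start holds 3. Their GC contents are 85.6%, 65.2%, 58% and 38% for CACNA1C, HCN4, CACNA2D2 and SCN2B. None of the 4 windows shown holds the AGGTCA half-site known for retinoic acid receptors or the TGACNNNGC core of antioxidant response elements on either strand. Of the 67 channel genes, 44 had entries, with 71 promoters in all: the GC box was present in 47.9% of these and 42.6% of 35116 RefSeq promoters, AGGTCA in 8.45% and 12.1%, and TGACNNNGC in 4.23% and 10.9%. These are letter matches in a short window and say nothing of binding.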

How the data were processed

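RNA-seq libraries of SH-SY5Y cells were compared as H2O2-treated against control within each protocol. The authors counted reads per gene symbol with HTSeq 0.7.2 after trimming (cutadapt 2.10) and alignment to hg19 (HISAT2 2.1.0), and the deposited counts are raw, with 5 closing entries for reads not on a gene, which were left out of library sizes and tests. Strand setting and annotation version are not given in the sources used here. The authors' differential expression tables (log fold changes, log CPM, p-values and FDR) were not used.

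Counts were scaled by TMM and tested with edgeR 4.0.16 (quasi-likelihood, Benjamini-Hochberg over all genes tested) in R 4.3.3. A gene was tested where at least 3 libraries had a CPM at or above that of 5 counts in the smallest of them (2 without pre-treatment control 3). Calls needed an adjusted p below 0.05 and an absolute log2 fold change above 0.6 (co-treatment) or 1 (pre-treatment), and the interaction test the adjusted p alone. SE was the absolute log2 fold change over the square root of F. CPM values of the pre-treatment libraries are on the 6-library scale. Lengths and positions come from GENCODE v44 lifted to GRCh37, in which 68 of the 70 symbols matched 1 gene. Named are genes with an adjusted p below 0.05 in any fit, the most abundant gene per kilobase of each subfamily, and called partners; others are named where a count or level of note needed them, chosen after their values were seen. The members, the lists and the tests were chosen with earlier results of these data known. DESeq2 1.42.0, other scalings, filters and left-out libraries were alternatives, and the fits were checked on simulated counts. At an adjusted p below 0.05, a simulated log2 change of 1 was recovered for 70% of changed genes in co-treatment. The share was 20% in pre-treatment over 6 libraries, 48% without control 3 and 11% in the interaction. For a change of 2 the shares were 93%, 81%, 83% and 71%. A lack of calls in these fits therefore does not show a lack of change. Some genes are not reported here.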

Additional observations from a re-analysis of the deposited data

Results flagged for a closer look

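Over the 11 libraries without pre-treatment control 3, the pre-treatment change differed from the co-treatment change for 6 of 47 channel genes in the interaction term of edgeR's quasi-likelihood test, beside 8.02% of all 25668 genes tested. The log2 differences, pre-treatment minus co-treatment, included -1.49 ± 0.25 (SE; adjusted p of 0.00803) for SCN3B, -1.87 ± 0.32 (adjusted p of 0.00803) for TRPV4, -0.88 ± 0.17 (adjusted p of 0.0134) for SCN8A, -2.56 ± 0.68 (adjusted p of 0.0369) for CACNG5 and -1.36 ± 0.38 (adjusted p of 0.0421) for CACNA1C. With control 3 included none of these 5 passed. For SCN3B, TRPV4 and CACNG5 control 3 was within the range of the pre-treatment H2O2 libraries, and for CACNA1C and SCN8A it was below it.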

How the results depend on the processing

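For the channel genes called in co-treatment (0), edgeR's exact test, DESeq2 and no filter on low counts gave 2 each (CACNA2D2 and SCN4B). They called 1.39%, 1.39% and 1.19% of all genes. Leaving out 1 library gave 0 to 1 (SCN4B without control 1, CACNA2D2 without treated 1), beside 0.0784% to 0.953% of all genes. In pre-treatment over 6 libraries (0), the same 3 settings gave 2 each (CACNA2D2 and CACNG4), beside 0.934%, 2.02% and 0.726% of all genes. Leaving out 1 library gave 0 to 13, the 13 without control 3 (11.2% of all genes) and 0 without any other (0% of all genes). Without control 3 (13), exact test, DESeq2, RLE, library size alone, no filter and no fold limit gave 13 to 17, and leaving out a further library 4 to 14: 4 without control 2 (CACNG4, CACNG8, SCN3B and TRPV4), 8 without treated 1, 9 without treated 2 and 14 without control 1. With 1 control left, that sample is assumed to vary like the other group. The interaction gave 1 (TRPV4) with no filter, beside 0.639% of all genes. It gave 0 to 6 when 1 library was left out, the 6 without pre-treatment control 3 (8.02% of all genes). None of the genes called in any comparison changed sign in that comparison under these settings.

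With the replicate number as a replicate block, 1 gene was called in co-treatment (CACNA2D2), 0 in pre-treatment over 6 libraries, 13 without control 3 (11 of them shared with the fit without the block) and 0 in the interaction. The shares of all genes called were 0.815%, 0%, 14.3% and 0% in the same order. Same-numbered libraries did not deviate together: correlations were -0.063, -0.073 and -0.066 in co-treatment and -0.229, 0.030 and -0.279 in pre-treatment, so the numbers were not treated as pairs. At these depths genes below the filter limit of 0.181 CPM (co-treatment) or 0.120 CPM (pre-treatment) could not be compared.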
